A study of Mus musculus with 9 samples.

Results

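Mouse brain microvascular endothelial cells deprived for 6 h were compared with cells kept in normoxia for 6 h, over the genes of the deposited table whose mean was at least 1 FPKM over the 9 libraries. FPKM counts sequenced fragments by transcript length and relative to all fragments mapped in a library. These were 580 of the 675 listed genes, measured in 3 of the 9 RNA-seq libraries: normoxia, OGD and OGD+Oba at 6 h. OGD stands for culture without oxygen, glucose and fetal bovine serum, and OGD+Oba for the same culture with 3 µM obacunone, a limonoid found in citrus. All cells were wild type and labelled as a cell line named MBMECs, and nothing in the labels gives separate cultures. The normoxia libraries of 1 h and 3 h served as a second reference, since each group held 1 library and differences between libraries could not be checked in replicates.

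Cells sense oxygen through prolyl hydroxylases, which mark the alpha subunits of hypoxia-inducible factor (HIF) for destruction by the VHL ligase while oxygen is present. Without oxygen HIF accumulates and switches on genes for glucose uptake, glycolysis, blood vessel growth and mitophagy, together with its own hydroxylases. Loss of glucose and of serum acts through further sensors, among them the MondoA and ChREBP factors that drive Txnip, the FOXO factors that growth factor signalling restrains, and the YAP and serum response factors. Brain capillary endothelium forms the blood-brain barrier and takes up glucose through the transporter Slc2a1.

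The authors' deposited table holds only genes whose log2 ratio between OGD and normoxia at 6 h reached 1 in either direction. Differences of OGD from normoxia at 6 h are therefore given as descriptions only. A gene missing from the table may have changed too little to enter it. Counts on gene lists therefore speak for the compared members, not for whole pathways. The OGD+Oba library took no part in that choice, but the normoxia library of 6 h did, so differences from it are enlarged by the choice as well. Sequencing depth is unknown for FPKM values, and no counting interval could be computed. Differences are given on the log2(FPKM + 1) scale, which understates the change of genes near 0. Where a standard error (SE) stands beside a log2 value, it comes from limma fitted over all 9 libraries, for the mean of the deprived pair minus normoxia at 6 h. That error rests on the OGD and OGD+Oba pairs and assumes that the lone normoxia library varies like them. Nearly all genes passed this fit (97.4% of 580 at an adjusted p of 0.05, 53.1% higher and 44.3% lower), in a table chosen on the OGD library of the pair, so passing it sets no gene apart. In bulk RNA, fewer cells of a type and less RNA per cell cannot be told apart.

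Of a list of 27 endothelial marker genes, 0 were among the 580 genes, so the labelled cell type was not checked here. The endothelial marker Flt1 was in the deposited table with a mean under 1 FPKM, as was the epithelial marker Prss8. Markers of other cell types were few. Of 31 epithelial markers 2 were compared, the tight junction protein Cldn4 and the transcription factor Elf3, and their summed level was 136 to 189 FPKM in the normoxia libraries against 486 and 492 in the deprived pair at 6 h. The 2 astrocyte markers compared, Sox9 and Aldoc, summed to 15.6 to 20.1 FPKM in normoxia and to 93.0 and 87.4 in the pair. The 3 neuron markers Nrn1, Tubb3 and Eno2 summed to 24.1 to 45.0 against 86.3 and 83.4, with Tubb3 moving the other way. No defining marker of pericytes, fibroblasts, microglia or oligodendrocytes was among the genes compared. The part of other cells in the results was not tested.

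Among the 580 genes, which hold none that stayed within 2-fold between OGD and normoxia in the authors' ratio, the 10 highest in the deprived pair were all higher there than in normoxia at 6 h. Hilpda, which blocks lipolysis at lipid droplets, ranked 12th among the 580 genes in normoxia at 6 h, with 251 FPKM. It was the highest gene of both deprived libraries, with 1682 FPKM under OGD and 1835 under OGD+Oba, and its log2 difference in the fit was 2.81 ± 0.11. Hilpda alone made up 11.5% of the FPKM gained between normoxia and OGD+Oba, summed over those of the 580 genes that were higher. Bhlhe40, a repressor of the clock and a HIF target, ranked 3 in both deprived libraries with 693 and 672 FPKM, and 22nd in normoxia with 113. Slc2a1 followed at 577 and 567 against 71.2 FPKM, and the autophagy receptor Sqstm1 at 558 and 623 against 284.

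Among the 10 highest genes by the mean of the deprived pair, further ones were Ddit4, Ier3, Junb, Dusp1 and Ero1l. Ddit4, an inhibitor of mTORC1, stood at 65.6 FPKM in normoxia and at 416 and 387 in the pair. The early response gene Ier3 was at 50.2 against 357 and 389 FPKM, and the AP-1 subunit Junb at 68.7 against 370.0 and 377. Ero1l, the oxidase that feeds disulfide bonds in the endoplasmic reticulum, was at 46.3 against 314 and 306 FPKM, and the phosphatase gene Dusp1 at 148 against 313 and 328. In each of these the pair lay far closer together than either lay to normoxia.

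The 10 highest of these 580 genes in normoxia were mostly lower under deprivation. Ccn2, a matricellular protein and target of YAP on chromosome 10 (24595442 to 24598683, GRCm38.p6), was the highest of the 580 genes in normoxia at 6 h with 927 FPKM, and stood at 292 under OGD and 301 under OGD+Oba, ranking 12th in the latter. It made up 10.4% of the FPKM lost, summed over those of the 580 genes that were lower. Txnip, the third highest in normoxia, went from 492 to 43.7 and 36.7 FPKM, rank 113 under OGD+Oba. Tnfrsf12a, the receptor for the cytokine TWEAK, went from 463 to 148 and 141, Plat, the tissue plasminogen activator, from 455 to 87.2 and 91.9, and the serum-induced kinase Sgk1 from 423 to 118 and 104. Further genes of the normoxia top 10 were D17H6S56E-5 at 376 against 178 and 158 FPKM, the small GTPase gene Arf2 at 352 against 154 and 152, and Mat2a at 307 against 81.2 and 81.4. Sqstm1, in that top 10 as well, had higher values in the deprived pair.

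The share of higher genes is given by level in normoxia as a description only, since the normoxia library that sets the class is also the one subtracted and took part in the choice of the table. Of the 43 genes under 1 FPKM in normoxia at 6 h, 97.7% were higher under OGD+Oba, against 54.5% of all 580 (45.3% were lower). That share was 56.1% for the 278 genes from 1 to 10 FPKM, 46.8% for the 235 genes from 10 to 100, and 33.3% for the 24 genes of at least 100. Low classes are thereby drawn to higher and high classes to lower differences, and the minimum on the mean keeps genes near 0 in normoxia only where they are high elsewhere. The number of genes at or above 100 FPKM was 24 in normoxia, 51 under OGD and 52 under OGD+Oba. Summed over the 580 genes, FPKM came to 14782 in normoxia and to 22215 and 22585 in the pair, while the medians were close at 7.76, 8.23 and 8.12. The share of the sum in the 10 highest genes was 32.8%, 30.5% and 31.6%.

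**Figure D1:**
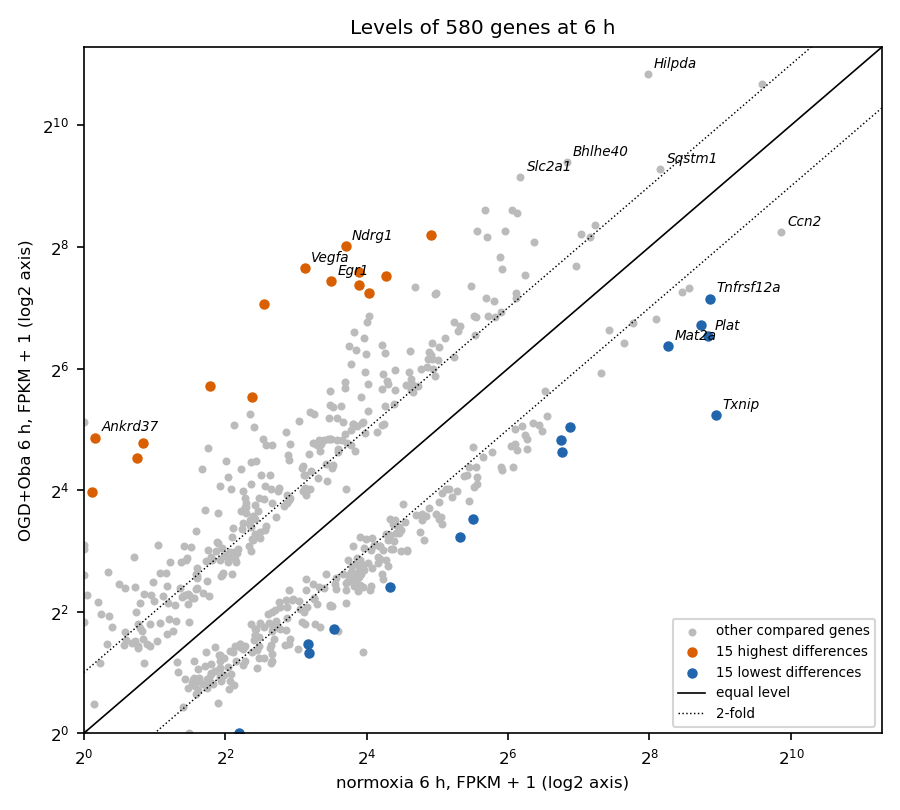
Level of each of the 580 genes in normoxia at 6 h (x axis) and under OGD+Oba at 6 h (y axis), both as FPKM + 1 on log2 axes, 1 library each. Orange points are the 15 highest and blue points the 15 lowest differences, the solid line marks equal levels and the dotted lines 2-fold; Hilpda and Slc2a1 stand far above the line among abundant genes, and Ccn2, Txnip, Plat and Tnfrsf12a below it.

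Ranked by log2 difference of OGD+Oba from normoxia at 6 h, the top of the list included genes of oxygen sensing and vessel growth. It also held the glycogen gene Ppp1r3c and genes of other kinds. The 15 highest named genes were, in order, Ankrd37, Vegfa, Depp1, Ndrg1, Egr1, Ppp1r3c, Efna1, Smtnl2, Prdm1, Cited2, Pnrc1, Bnip3, Egln3, Ccng2 and Fos, at 4.70 down to 3.16. Ankrd37, an ankyrin repeat protein and HIF target (chromosome 8, 45996908 to 46000414), was low in normoxia, at 3.76, 0.71 and 0.12 FPKM at 1, 3 and 6 h, and stood at 30.5 under OGD and 28.1 under OGD+Oba at 6 h. Vegfa, the vascular endothelial growth factor (chromosome 17, 46016993 to 46032377), was at 7.01 to 19.1 FPKM in normoxia and at 214 and 201 in the pair, 25.9-fold above normoxia at 6 h under OGD+Oba. Its limma difference was 4.57 ± 0.16, and its rank by level went from 291 to 21. Ndrg1, a stress-responsive growth regulator, rose from 12.04 to 270 and 257 FPKM, 4.34 ± 0.15 in limma.

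Other genes of the top 15 came from low levels. Ppp1r3c, which brings protein phosphatase 1 to glycogen, was at 0.50 to 1.19 FPKM in normoxia and at 26.1 and 26.4 in the pair. Efna1, a membrane-bound ephrin ligand, was at 2.15 to 3.62 against 52.0 and 51.4, and Smtnl2, a smoothelin-like protein, at 0.09 to 0.40 against 13.7 and 14.6. Prdm1, a transcriptional repressor, was at 0.69 to 2.44 FPKM against 24.0 and 22.1. Depp1, a FOXO target involved in autophagy, was at 4.88 FPKM in normoxia at 6 h but at 47.0 at 1 h, against 117 and 133 in the pair. For all these genes both deprived libraries lay above every normoxia library, as they did for 48.4% of the 580 genes, with a further 42.4% below every normoxia library and 90.9% on either side.

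Egr1 and Fos, growth-factor-induced transcription factors, did not separate from normoxia in this way. Egr1 was at 179 FPKM in normoxia at 1 h, 5.65 at 3 h and 10.3 at 6 h, and the deprived pair stood at 168 and 173 at 6 h, inside that range. Fos was at 106, 3.89 and 4.21 FPKM in normoxia and at 42.5 and 45.4 in the pair. Their limma differences at 6 h were 3.92 ± 0.14 and 3.11 ± 0.28, and they hold against the normoxia library of 6 h, not against that of 1 h.

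At the bottom of the ranking Txnip stood apart. This arrestin, which restrains glucose uptake and binds thioredoxin (chromosome 3, 96557957 to 96561857), was at 676, 486 and 492 FPKM in the normoxia libraries of 1, 3 and 6 h and at 43.7 and 36.7 in the pair, 13.4-fold below normoxia at 6 h under OGD+Oba. Its limma difference was -3.59 ± 0.08. The next named genes were Plat at -2.30, H2ac19, Amd1, Apobec1 and Sgk1 at -2.01, all for OGD+Oba minus normoxia. Plat differed between the normoxia libraries too, with 130 FPKM at 1 h, 329 at 3 h and 455 at 6 h. The deprived pair at 6 h lay below all of these. Apobec1, a cytidine deaminase of RNA, was at 14.4 to 46.2 FPKM in normoxia and at 9.16 and 8.37 in the pair.

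The rest of the 15 lowest were Amotl2, Shpk, AA986860, Mat2a, Kbtbd8, Sdcbp2, Myh14, Tnfrsf12a and Syt12, from -1.97 to -1.69. Shpk, a sedoheptulose kinase of the pentose phosphate pathway, lay inside the normoxia range under OGD but just below it under OGD+Oba: it was at 4.33 FPKM in normoxia at 1 h and 19.1 at 6 h, against 5.08 and 4.29 in the pair. Sdcbp2, a PDZ adaptor, was at 34.3, 79.0 and 117 FPKM in normoxia and at 33.1 and 32.0 in the pair, and Myh14, a non-muscle myosin heavy chain, at 3.01, 4.28 and 10.6 against 2.66 and 2.27. In these 3 genes normoxia was higher at 6 h than at 1 h, and the pair at 6 h lay near the normoxia level of 1 h. H2ac19, a histone gene, was listed at 0 in both deprived libraries and at 3.6 FPKM in normoxia. All of its 31-base words also occur in other transcripts, as do 82.8% of those of Amd1, so their levels are uncertain.

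**Figure D2:**
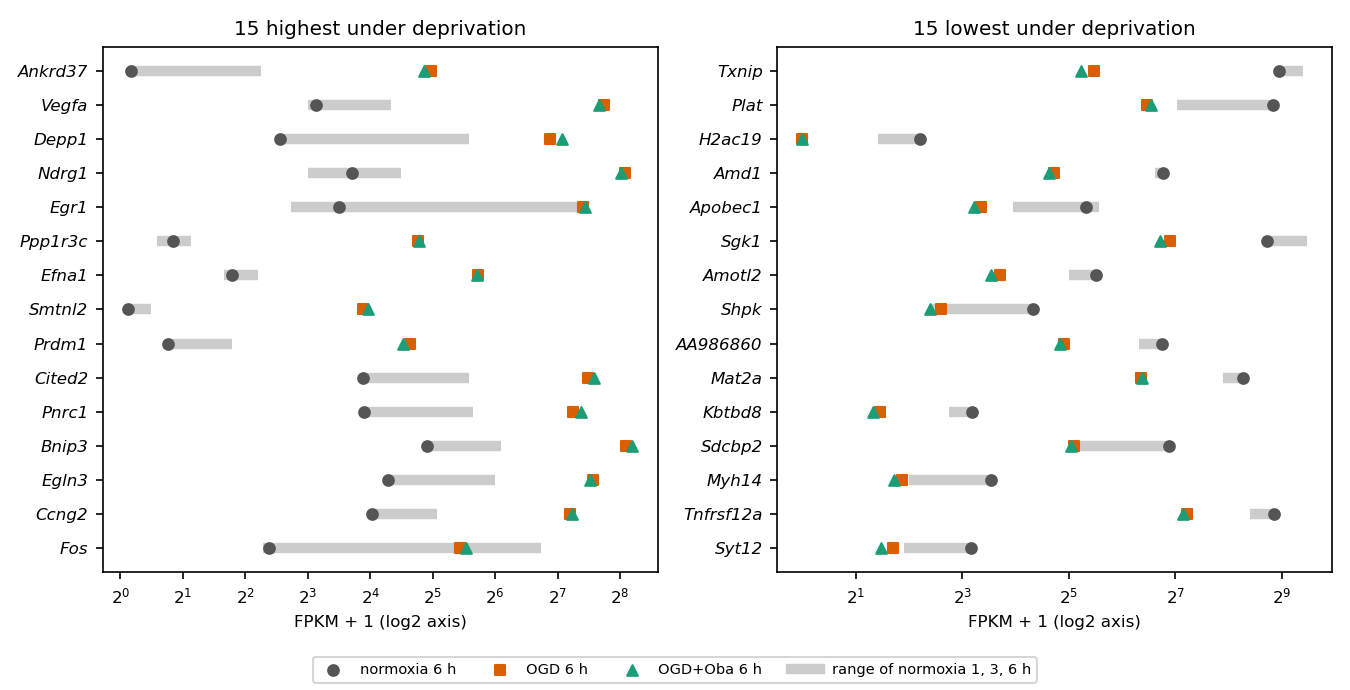
FPKM + 1 on a log2 axis for the 15 highest (left) and 15 lowest (right) named genes, with 1 symbol for each 6 h library and a grey bar for the range of the 3 normoxia libraries. OGD and OGD+Oba lie side by side in every row, and only Egr1, Fos and Shpk have a deprived value inside the grey bar.

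Promoter windows from RefSeq (GRCm38.p6), running from 250 bases before the gene's start to 50 after it, were available for 480 of the 580 genes. They were searched on both strands for ACGTG, the core to which HIF binds in its response element. It was found in 46.0% of the 50 highest genes with a window, 20.0% of the 50 lowest, 31.2% of the compared genes and 21.8% of all 27025 mouse genes with a window. The longer CACGTG, which holds ACGTG on both strands and is therefore counted there too, was in 16%, 12%, 11.9% and 8.1%. Of the 15 highest named genes 13 had a window, and 6 of these held ACGTG: Ankrd37, Vegfa in the second of its 2 windows, Ppp1r3c, Cited2, Bnip3 and Egln3. Of the 15 lowest 13 had a window, and only Sgk1 held it, in 1 of 6 windows. A match describes the letters and is no evidence of binding, and a missing match says only that these letters are not in this window.

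The windows of 5 of the highest genes that hold ACGTG are shown because the genes stand for oxygen sensing, mitophagy and glycogen. Each is read 5′ to 3′ on the gene's strand, with matches to ACGTG on either strand in capitals. They lie at chr8:45999801-46000100 (minus strand) for Ankrd37, chr19:36736555-36736854 (minus) for Ppp1r3c, chr10:17722978-17723277 (plus) for Cited2, chr7:138909457-138909756 (minus) for Bnip3 and chr12:54203825-54204124 (minus) for Egln3.
Ankrd37: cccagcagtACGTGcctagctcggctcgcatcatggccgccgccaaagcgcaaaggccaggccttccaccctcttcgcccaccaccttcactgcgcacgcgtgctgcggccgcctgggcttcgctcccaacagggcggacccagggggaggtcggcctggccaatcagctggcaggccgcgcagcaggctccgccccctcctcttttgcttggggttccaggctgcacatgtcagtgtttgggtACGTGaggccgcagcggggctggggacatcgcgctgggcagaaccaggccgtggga
Ppp1r3c: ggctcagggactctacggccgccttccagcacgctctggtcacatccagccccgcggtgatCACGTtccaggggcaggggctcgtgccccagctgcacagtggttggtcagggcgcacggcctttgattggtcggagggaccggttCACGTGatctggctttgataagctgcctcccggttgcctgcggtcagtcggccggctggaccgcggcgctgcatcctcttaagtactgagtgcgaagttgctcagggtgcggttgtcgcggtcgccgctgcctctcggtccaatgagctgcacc
Cited2: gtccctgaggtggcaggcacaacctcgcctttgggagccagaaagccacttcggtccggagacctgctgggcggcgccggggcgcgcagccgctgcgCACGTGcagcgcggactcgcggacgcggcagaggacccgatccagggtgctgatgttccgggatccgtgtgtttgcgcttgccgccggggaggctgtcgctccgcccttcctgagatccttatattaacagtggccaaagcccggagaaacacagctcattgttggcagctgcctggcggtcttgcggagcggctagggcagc
Bnip3: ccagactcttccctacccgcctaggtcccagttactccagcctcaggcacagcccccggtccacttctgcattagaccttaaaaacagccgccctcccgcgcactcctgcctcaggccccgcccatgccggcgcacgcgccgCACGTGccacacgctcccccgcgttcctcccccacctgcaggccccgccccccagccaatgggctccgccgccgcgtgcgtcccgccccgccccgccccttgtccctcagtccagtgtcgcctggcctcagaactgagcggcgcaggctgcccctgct
Egln3: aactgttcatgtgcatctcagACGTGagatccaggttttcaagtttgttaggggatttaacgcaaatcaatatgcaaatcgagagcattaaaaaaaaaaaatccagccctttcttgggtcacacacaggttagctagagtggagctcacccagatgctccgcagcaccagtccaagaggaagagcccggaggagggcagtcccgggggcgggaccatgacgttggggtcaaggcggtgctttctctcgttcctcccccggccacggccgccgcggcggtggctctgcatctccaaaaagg

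Txnip, the lowest gene, has no ACGTG in its window at chr3:96557707-96558006 (plus strand). Its window is shown with CACGAG in capitals, an arm of the paired element through which MondoA and ChREBP are known to drive the human gene. This motif was chosen after the sequence had been read.
Txnip: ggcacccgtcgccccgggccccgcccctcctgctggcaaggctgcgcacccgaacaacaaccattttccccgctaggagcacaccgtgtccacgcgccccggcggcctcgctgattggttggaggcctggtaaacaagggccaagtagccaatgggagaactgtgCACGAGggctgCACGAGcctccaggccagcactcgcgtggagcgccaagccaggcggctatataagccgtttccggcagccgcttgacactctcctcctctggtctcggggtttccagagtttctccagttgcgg
Both copies of CACGAG lie close together on the same strand. On either strand CACGAG was in 9.0% of the compared genes with a window, in 10% of the 50 lowest and 12% of the 50 highest, and in 7.5% of all genes with a window.

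Genes of HIF feedback and transcription were higher in every member of their list that could be compared. Of 23 genes on a list of HIF feedback and transcription, 14 were compared, and all 14 were at least 2-fold higher under OGD+Oba than in normoxia at 6 h, as were 39.1% of the 580 genes. Their median log2 difference was 2.15, against 0.72 over the 580. The list is wider than the oxygen-sensing loop and also holds Bhlhe40, Mxi1, Rora, Nfil3 and Fos, of which Fos lay within the normoxia range. Egln3, a prolyl hydroxylase that HIF induces, was at 62.6, 42.7 and 18.4 FPKM in the normoxia libraries of 1, 3 and 6 h and at 189 and 183 in the pair. Its relative Egln1, the main oxygen sensor, was at 18.2 to 28.5 FPKM against 69.9 and 75.7, and Vhl at 14.98 to 17.7 against 55.7 and 59.0. Cited2, which competes with HIF for its coactivator, was at 13.8 to 46.7 FPKM in normoxia and at 179 and 191 in the pair, 3.65 ± 0.10 in limma. Sensors, ligase and competitor were all above the range of the 3 normoxia libraries.

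Histone and RNA demethylases that use oxygen were part of the same list or stood beside it. Kdm3a, which removes methyl groups from histone H3, went from 12.7 to 65.1 and 66.6 FPKM, and Kdm4b from 3.88 to 13.3 and 12.2. The RNA demethylase Alkbh5 went from 23.2 to 63.4 and 60.4 FPKM and the oxygenase Jmjd6 from 51.4 to 116 and 115. Together with Jarid2, a relative that lacks this activity, 5 of 28 genes on a list of chromatin oxygenases and relatives were compared, all higher against 54.5% of the 580, with a median of 1.34. The pair lay above every normoxia library in all 5.

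Secreted and surface products on the HIF list included Vegfa, Efna1, Areg and Stc1, all higher under OGD+Oba than in normoxia at 6 h. Areg, an EGF receptor ligand, was at 7.22, 5.05 and 1.67 FPKM in normoxia and at 5.88 and 7.42 in the pair, and Stc1, a secreted glycoprotein, at 36.4, 21.1 and 17.5 against 34.9 and 32.7. For Areg and Stc1 a deprived library lay within the normoxia range, and normoxia was highest at 1 h.

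Inside the cell, 20 of 37 HIF target genes were compared, all at least 2-fold higher under OGD+Oba against 39.1% of the 580, with a median of 1.99. Bnip3, a mitophagy receptor of the outer mitochondrial membrane, was at 67.4, 53.7 and 29.0 FPKM in normoxia and at 272 and 292 in the pair, 3.24 ± 0.09 in limma. Its relative Bnip3l was at 36.7 to 62.4 FPKM against 108 and 108. Pdk1, the kinase that closes pyruvate dehydrogenase, went from 9.22 to 25.2 and 26 FPKM, and Higd1a, a hypoxia-induced protein of the inner mitochondrial membrane, from 50.5 to 127 and 142. The secreted neuritin gene Nrn1, listed among neuron markers as well, went from 13.4 to 80.9 and 77.9. P4ha1, a collagen prolyl hydroxylase, was at 66.8 FPKM in normoxia at 1 h and at 66.8 and 62.5 in the pair, so it differed only from normoxia at 3 h and 6 h.

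Genes of glucose handling were higher where they could be compared. Of 30 genes of glucose uptake and glycolysis 7 were compared and all were higher, against 54.5% of the 580, with a median of 1.31. Slc2a1, the glucose transporter of the barrier, had the largest difference, at 71.2 to 135 FPKM in normoxia and 577 and 567 in the pair, 2.99 ± 0.08 in limma. Hk2, which phosphorylates glucose, was at 25.4 to 47.8 FPKM against 159 and 149.7, and Pfkfb3, which makes the activator of phosphofructokinase, at 3.43 to 4.39 against 21.01 and 21.37. Lower in order came Pfkl at 45.6 to 86.8 against 117 and 115, then Eno2, Pfkp and Aldoc at log2 differences of 1.08, 0.80 and 0.78. Most of the 30 genes were absent from the deposited table, as genes of smaller change would be. A rise of the whole list is therefore not shown.

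Glycogen genes were compared for 4 of 29 on the list, and all 4 were at least 2-fold higher, against 39.1% of the 580, with a median of 1.74. Besides Ppp1r3c they were its relative Ppp1r3b, at 2.54 to 3.05 FPKM in normoxia against 14.99 and 15.78, the phosphoglucomutase gene Pgm2 at 31.6 to 50.6 against 82.3 and 81.2, and the synthase gene Gys1 at 12.8 to 16.6 against 34.4 and 30.6. The pair lay above every normoxia library for each. Among glucose-sensing arrestins the directions split. Arrdc4 was lower, at 8.31 to 16.1 FPKM in normoxia and 6.68 and 7.52 in the pair, as Txnip was, while Arrdc3 was higher, at 7.79 to 31.5 against 40.0 and 40.2.

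Genes that FOXO factors or growth factor withdrawal are known to induce were on a list that overlaps others. Cited2 and Ddit4 are on HIF lists as well, and Ccng2, Cdkn1b and Hbp1 are also among the brakes of the cell cycle. Of 33 listed 11 were compared, 10 higher and 1 lower (54.5% and 45.3% of the 580), with a median of 1.75. Foxo3 itself was at 4.13 to 4.80 FPKM in normoxia and at 17.1 and 16.3 in the pair. Cdkn1b, an inhibitor of cyclin-dependent kinases, was at 14.7 to 22.1 FPKM against 60.9 and 60.4, and the cyclin-like brake Ccng2 at 15.3 to 32.7 against 146 and 149.6. The death-promoting Bcl2l11 went from 2.72 to 13.0 and 11.4. The member that was lower was Sgk1, a kinase that phosphorylates FOXO factors, at 404 to 706 FPKM in normoxia against 118 and 104.

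Brakes of the cell cycle were higher in 8 of the 9 compared members of a list of 24, against 54.5% of the 580, with a median of 1.96. They included repressors of the MAX network, which compete with MYC for its partner. Mxd1 went from 2.39 to 24.9 and 25.0 FPKM and Mxi1 from 4.11 to 35.02 and 37.24. Mxd3, a member tied to proliferating cells, was lower, going from 7.74 to 2.73 and 2.48. Mnt, of the same network but not on the list of brakes, was at 10.17, 6.61 and 3.88 FPKM in normoxia. It stood at 14.5 and 13.6 in the pair. This network was picked out after the values had been seen. On a list of 65 genes of cycle and mitosis 6 were compared, and all 6 were at least 2-fold lower, against 29.3% of the 580 genes, with a median of -1.24. The rest of that list was absent from the deposited table, as genes of smaller change would be. A fall of the list as a whole is therefore not shown. Ccnd1, the cyclin that growth factors induce, was at 102 to 158 FPKM in normoxia and at 65.2 and 59.9 in the pair. Ccnf, Aurka and Pif1 followed the same direction, at -1.63, -1.25 and -1.22 for OGD+Oba minus normoxia.

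**Figure D3:**
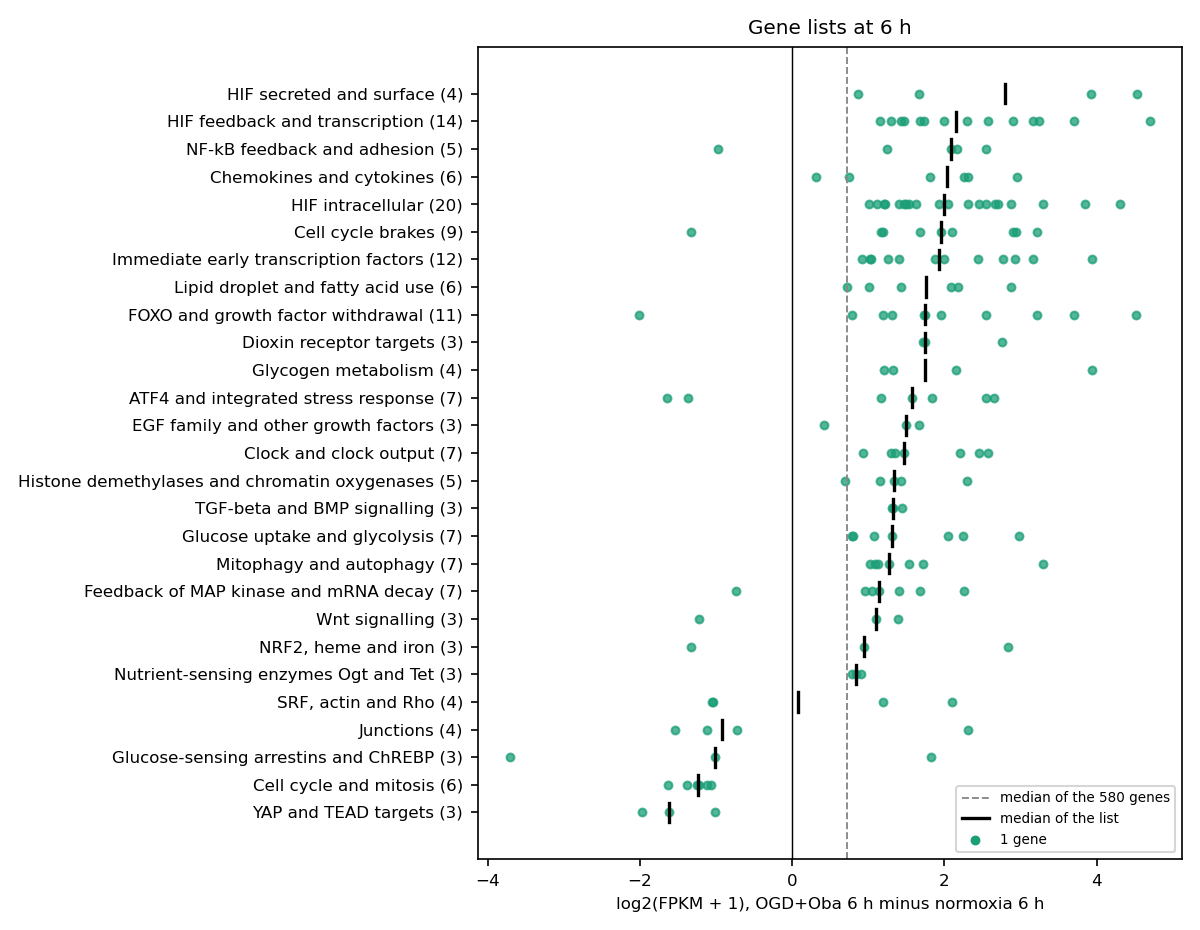
Difference in log2(FPKM + 1), OGD+Oba 6 h minus normoxia 6 h (x axis), for the compared genes (points) of the lists on the y axis, with the number shown in brackets, the list's median as a black bar and the median of the 580 genes, 0.72, as a dashed line. The HIF lists lie wholly to the right of 0, and the cell cycle and YAP lists wholly to the left.

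Several immediate early and inflammatory genes were high at 6 h of deprivation and also in normoxia at 1 h. Of 33 immediate early genes 12 were compared, all 12 higher against 54.5% of the 580, with a median of 1.94. For Egr1, Fos, Atf3 and Fosb a deprived library fell within the normoxia range. Atf3, a stress-induced repressor, was at 224, 31.9 and 13.2 FPKM in the normoxia libraries of 1, 3 and 6 h and at 99.3 and 96.0 in the pair. Ier3 and Junb did exceed it: Ier3 was at 148, 38.0 and 50.2 FPKM in normoxia against 357 and 389. Against the mean of normoxia at 1 h and 3 h the list's median was 1.11.

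Feedback regulators of these pathways were mostly higher. Dusp4, a phosphatase that switches off ERK, was at 30.3 to 58.2 FPKM in normoxia and at 160.03 and 149 in the pair, and Dusp5, of the same family, at 26.6 to 51.4 against 81.4 and 76.7. Zfp36, which directs decay of inflammatory messages, was at 109 FPKM in normoxia at 1 h and at 58.5 and 62.3 in the pair. Of 29 genes of this kind 7 were compared, 6 higher and Dusp8 lower, where 54.5% of the 580 were higher and 45.3% lower.

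Chemokines were higher where they could be compared, with Ccl2 as a weak case. Of 39 chemokine and cytokine genes 6 were compared, all higher against 54.5% of the 580, with a median of 2.03. Ccl2 was at 0.31 and turned to -0.66 with the mean of normoxia at 3 h and 6 h as control. Cxcl2, an attractant of neutrophils, was at 23.5, 2.28 and 3.36 FPKM in normoxia and at 30.8 and 32.6 in the pair. Cxcl1, of the same kind, was at 91.8 FPKM in normoxia at 1 h, above the 70.1 and 74.9 of the pair, and at 14.9 at 6 h. For Cxcl10 the normoxia series ran 2.02, 4.0 and 0.27 FPKM, so the 4.88 and 5.31 of the pair were only slightly above its 3 h value. With the mean of the earlier normoxia libraries as reference, its log2 difference under OGD+Oba was 0.70. The normoxia series of Csf2 ran 1.42, 0.49 and 0.50 FPKM, below the 4.57 and 4.26 of the pair. Nfkbia, which holds NF-kB in the cytoplasm, was at 14.6 to 42.9 FPKM against 95.3 and 90.0, and Tnfaip3, a ubiquitin-editing brake, at 4.95 to 9.03 against 27.1 and 25.8. Icam1, the leukocyte adhesion molecule, moved the other way, at 7.80 to 13.6 FPKM against 5.92 and 6.39.

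Stress pathways were represented by a few genes each. Of 39 genes of the ATF4 response 7 were compared, 5 higher and 2 lower (54.5% and 45.3% of the 580). Ddit3, a factor of the unfolded protein response, was at 24.8 to 32.9 FPKM in normoxia and at 129 and 160.3 in the pair, 2.49 ± 0.14 in limma, while Chac1, a glutathione-degrading ATF4 target, was at 0.78, 6.58 and 7.17 FPKM against 1.71 and 1.61. The heme-degrading enzyme Hmox1 was at 15.4 to 37.9 FPKM against 112 and 115. Slc40a1, the iron exporter, was at 12.6 to 17.2 against 6.16 and 6.26, and the transferrin receptor Tfrc, at 36.8 to 99.6 in normoxia, lay inside that range at 72.5 and 72.1. The dioxin receptor Ahr and its targets Tiparp and Cyp1a1 were all higher: Cyp1a1 was at 26.4 to 59.5 FPKM in normoxia against 156 and 199, and Tiparp at 15.02 to 23.7 against 112 and 108.

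Lipid, autophagy and clock genes were compared in small numbers, and those compared were higher. Some are counted on HIF lists as well: Hilpda among lipid genes, Bnip3 and Bnip3l among mitophagy genes, and Bhlhe40, Rora and Nfil3 among clock genes. For lipid droplets and fatty acid use 6 of 39 genes were compared, all higher against 54.5% of the 580, with a median of 1.76. The phosphatidate phosphatases Lpin1 and Lpin2 went from 3.11 to 19.4 and 17.6 FPKM and from 7.28 to 37.0 and 34.1. For mitophagy and autophagy 7 of 46 were compared, all at least 2-fold higher against 39.1% of the 580, with a median of 1.27, among them Flcn, which senses nutrients at the lysosome, from 10.1 to 32.5 and 35.4, and its partner Fnip1 from 13.1 to 35.1 and 32.9. Of 22 clock genes 7 were compared, all higher against the same 54.5%, with a median of 1.47. Nr1d1, the repressor REV-ERB alpha, was at 13.96, 2.54 and 3.05 FPKM in normoxia against 22.6 and 21.3, and Ciart at 3.26, 1.25 and 0.63 against 6.68 and 6.47. Nr1d1 and Ciart were both higher in normoxia at 1 h than at 3 h and 6 h.

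By the cellular component terms of the authors' deposited annotation, 45 of the 53 genes annotated to the mitochondrion were higher under OGD+Oba, 84.9% against 54.5% of the 580 genes, with a median of 1.22. For chromatin the share was 82.4% of 17 genes, and for the nucleus 64.3% of 244. Golgi genes stood on the other side, with 38.9% of 36 higher and a median of -0.83, and so did the cytoskeleton by its median, with 47.5% of 40 higher and a median of -0.73, and focal adhesion, with 5 genes and a median of -1.05. Plasma membrane genes were even, at 50.4% of 129. These shares describe the listed genes and are given without a test.

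Few YAP and TEAD targets were compared. The rest of their list was absent from the deposited table, so the list as a whole was not assessed. The 3 of 20 that were compared were all at least 2-fold lower, against 29.3% of the 580, with a median of -1.62. Besides Ccn2 these were Amotl2, which anchors YAP at junctions, at 31.2 to 44.3 FPKM in normoxia against 12.04 and 10.58, and Ankrd1 at 173 to 217 against 101 and 107. The integrin subunits Itga5, part of the fibronectin receptor, and Itga2, part of a collagen receptor, went from 32.2 to 12.4 and 10.8 FPKM and from 8.53 to 4.05 and 3.61. The proteoglycan Sdc4 went from 38.8 to 104 and 103. These receptors were picked out after the values had been seen.

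Junction genes split. Cldn4 was higher, at 60.9 to 138 FPKM in normoxia and 308 and 307 in the pair, 2.32 ± 0.08 in limma. The claudin genes Cldn9 and Cldn12 and the tricellular junction protein Marveld2 were lower: Cldn9 was at 7.04 to 13.8 FPKM against 5.25 and 4.07, Cldn12 at 23.2 to 32.5 against 14.8 and 14.4, and Marveld2 at 10.02 to 16.2 against 5.80 and 7.47. These were 4 of 38 genes on the list. Of the small GTPase regulators compared, Arhgap29 and Arhgef28 were higher and Rnd1 and Rnd3 lower. The median of those 4 was 0.08 and turned to -0.20 when libraries were scaled by median ratios.

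Enzymes of S-adenosylmethionine were both lower, as were 45.3% of the 580 genes. Mat2a, which makes this methyl donor, was at 237, 288 and 307 FPKM in normoxia and at 81.2 and 81.4 in the pair, -1.90 ± 0.14 in limma. Amd1, which turns it toward polyamines, was at 97.4 to 108 FPKM in normoxia against 25.4 and 23.6. Of 10 RNA-binding and splicing genes picked from those compared, 7 were lower, against 45.3% of the 580, with a median of -1.13. Srsf1, a splicing factor, was at 71.8 to 88.4 FPKM against 30.03 and 30.35, and the helicase Ddx3x at 199 to 224 against 91.8 and 84.2. Rbm15, an adaptor of RNA methylation, was at 3.32 to 7.08 FPKM against 11.8 and 9.34. Gmppb, Slc35c1, Alg3 and Mogs, 4 genes of sugar-nucleotide supply and N-glycan assembly or processing, were all lower, against 45.3% of the 580. Their median was -1.41. Gmppb, which makes GDP-mannose, was at 11.9 to 21.5 FPKM in normoxia against 7.50 and 7.04. These 3 groups, too, were picked out after the values had been seen.

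Signals of development were mixed. Bmp4, Tgif1 and Id2 of TGF-beta and BMP signalling were all higher, at log2 differences of 1.44, 1.33 and 1.31. Axin2, a feedback inhibitor of Wnt signalling, was at 29.3 to 34.0 FPKM in normoxia and at 92.6 and 89.7 in the pair, and the Wnt target Sp5 at 8.19 to 9.60 against 16.6 and 18.9, while the receptor Fzd4 was lower at 9.20 to 12.02 against 5.58 and 4.56. Sox9, which is no member of these lists, was at 12.2 to 16.1 FPKM against 86.8 and 81.4. The O-GlcNAc transferase gene Ogt and the DNA dioxygenase gene Tet2 did not pass limma, at 0.95 ± 0.43 (adjusted p = 0.0606) and 0.89 ± 0.44 (adjusted p = 0.0824).

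The distance between the 2 deprived libraries is given beside these values as a description only. Differences from normoxia at 6 h were enlarged by the choice of the table, and the 2 deprived libraries are not replicates. Over the 580 genes, log2 differences had a median size of 1.18 between OGD+Oba and normoxia at 6 h, and 0.11 between OGD+Oba and OGD. Between the normoxia libraries of 6 h and 1 h it was 0.49, and 85 genes differed at least 2-fold. Between OGD+Oba and OGD at 6 h, 5 genes differed at least 2-fold, and apart from H3c14 they were predicted genes, named after their values were seen. Gm14819 was at 0 FPKM under OGD and 19.9 under OGD+Oba, Gm10487 at 1.5 and 33.8, Gm21304 at 0 and 2.57 and Gm21451 at 8.57 and 0.39. Gm10487 had the highest difference of OGD+Oba from normoxia of the 580 genes, at 5.12, though OGD did not share that level. At least 98.9% of the 31-base words of each of these 4 genes also lie in other transcripts, so their levels are uncertain. The named genes furthest apart in the pair were H3c14 at 3.12 FPKM under OGD and 0 under OGD+Oba, Mmp10 at 0.78 and 1.76, Ccl2 at 23.9 and 15.2, H1f4 at 3.34 and 5.07 and Hyal1 at 10.2 and 7.03. H3c14 shares all of its 31-base words with other transcripts and Hyal1 50.7%, so those values are uncertain. Ccl2, a monocyte attractant, was at 48.8 FPKM in normoxia at 3 h and at 12.05 at 6 h, so its deprived values lay within the normoxia range. Obacunone and the spread between single libraries cannot be told apart in these gaps.

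**Figure D4:**
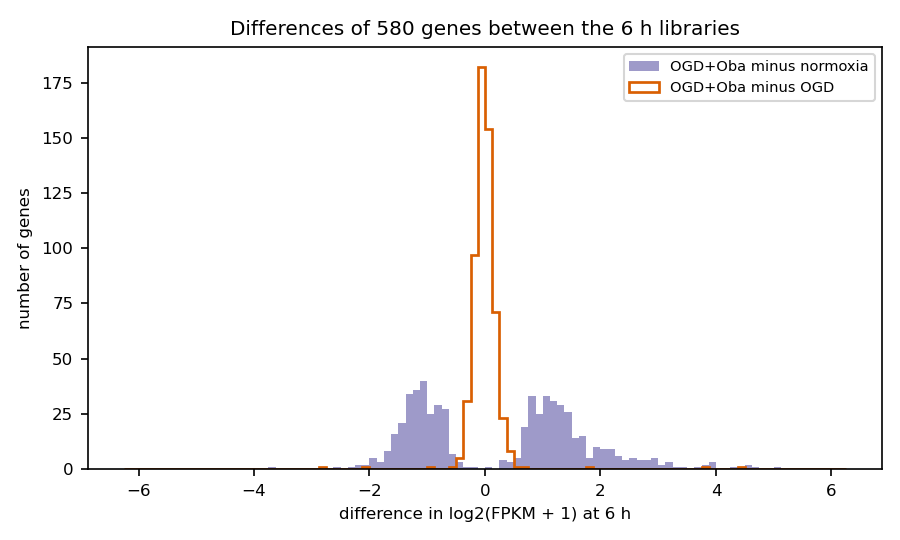
Number of the 580 genes (y axis) by difference in log2(FPKM + 1) at 6 h (x axis), for OGD+Oba minus normoxia (filled) and OGD+Oba minus OGD (outline). The gap in the filled bars around 0 follows the choice of the table, and the outline is narrow, with a median size of 0.11 against 1.18. The size of 1.18 is enlarged by that choice.

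A reference that took no part in the choice of the table gave smaller differences. Against the mean of normoxia at 1 h and 3 h, 25.0% of the 580 genes were at least 2-fold higher under OGD+Oba at 6 h and 10.5% at least 2-fold lower; time and deprivation cannot be told apart in this comparison. The median size was 0.84. HIF feedback genes had a median of 1.79 there and glycogen genes 1.55, while the median was 0.64 for glycolysis genes, 0.87 for chemokines and -0.93 for cell cycle genes. Txnip was at -3.93 and Ndrg1 at 4.26, close to their differences at 6 h, whereas Atf3 was at 0.17, Shpk at -0.51 and Sdcbp2 at -0.69. A deprived library lay within the normoxia range for 53 of the 580 genes.

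The strongest genes differed in when they reached their 6 h level. Ppp1r3c was at 21.7 FPKM under OGD+Oba at 3 h and at 26.4 at 6 h, and Txnip was at 37.7 and 36.7, so both were near their 6 h level by 3 h. At 1 h Txnip was already at 289 under OGD and 242 under OGD+Oba, against 676 in normoxia. Vegfa and Ndrg1 were still apart between 3 h and 6 h, at 104 and 201 and at 127 and 257 FPKM under OGD+Oba. Hilpda was at 239 FPKM under OGD+Oba at 1 h, 1203 at 3 h and 1835 at 6 h. Mat2a was at 172, 128 and 81.4. Plat was nearly level in the deprived libraries, at 87.2 to 101 FPKM over all times, while the normoxia values spread from 130 to 455.

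**Figure D5:**
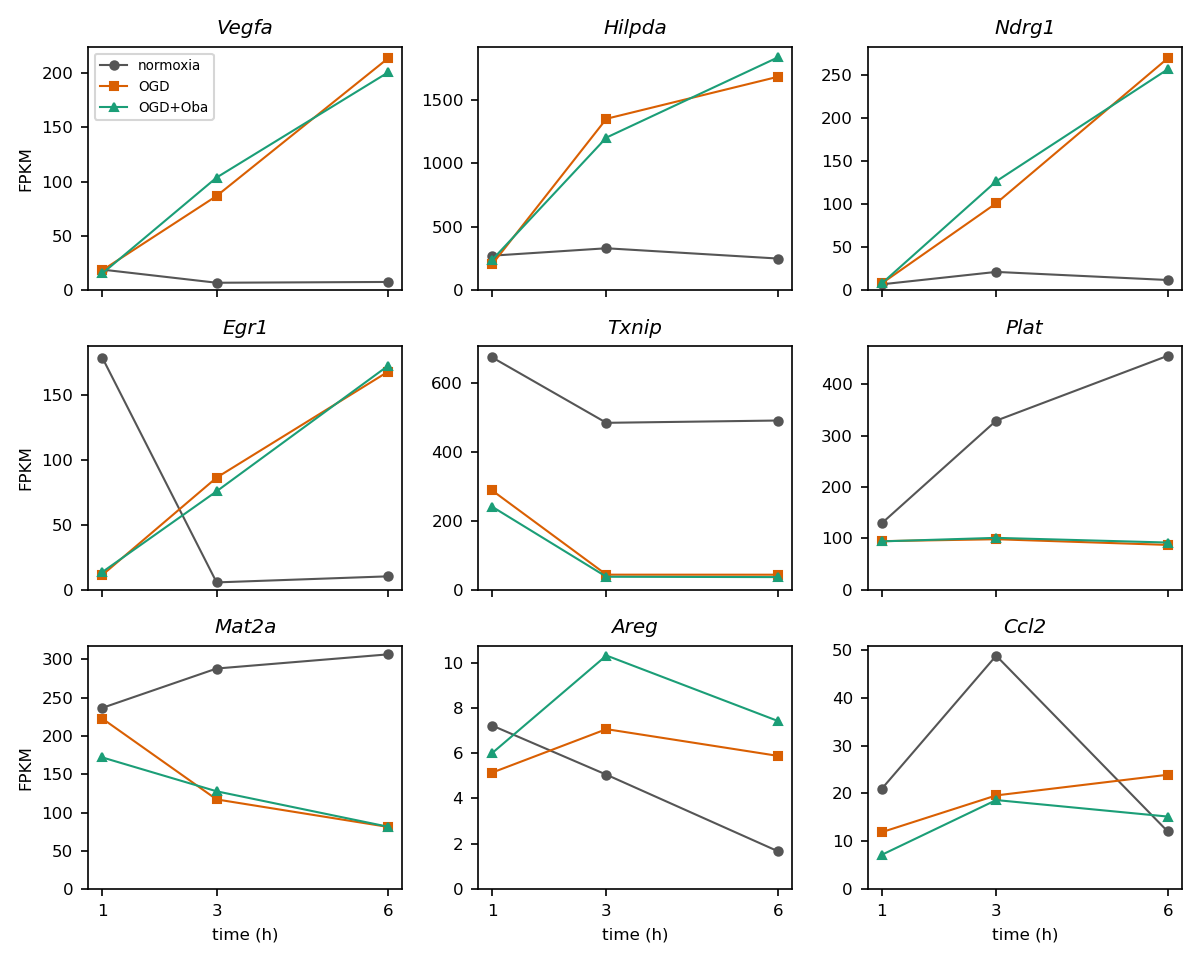
FPKM (y axis, from 0) of 9 genes at 1, 3 and 6 h (x axis) in normoxia, OGD and OGD+Oba, 1 library per point. Txnip is near its 6 h level by 3 h, Vegfa and Ndrg1 are higher at 6 h than at 3 h, Plat is level under deprivation while normoxia goes from 130 to 455, and Egr1 is high in normoxia at 1 h.

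The scale of the libraries sets how many genes count as higher or lower. As deposited, OGD+Oba was at least 2-fold higher than normoxia at 6 h for 227 genes and lower for 170. With libraries scaled by median ratios over the listed genes, the values were 154 and 224, and the median difference moved by -0.28 on the log2 scale. For OGD the split went from 224 higher (38.6%) and 172 lower (29.7%) to 150 and 246. The median of each list with at least 3 compared genes kept its sign under that scaling, except for the small GTPase regulators.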

How the data were processed

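RNA-seq values were taken from 1 deposited table, whose columns the authors gave in FPKM, 1 per library, with 6 further columns of the authors' deposited log2 ratio. HISAT2 2.0.4 and GRCm38 are named in the submitters' processing notes; the estimator of FPKM is not given in the sources used here. Gene identifiers matched RefSeq (GRCm38.p6) for 671 of 675 genes. The 95 genes with a mean under 1 FPKM were left out. Values were taken as log2(FPKM + 1). Comparisons of 2 libraries carry no test. The fit with limma 3.58.1 (R 4.3.3, trend, all 9 libraries) had a time term, a deprivation effect per time and a single obacunone term shared by all times, with 2 residual and 5.48 prior degrees of freedom; p-values were adjusted by Benjamini-Hochberg over 580 genes. Errors and p-values reflect differences between single libraries, since no culture is known to have been repeated. The fit was tested on simulated data with the same noise in every library, normoxia included, and no choice of genes. That run therefore checks neither how the lone normoxia library varies nor the effect of the table's selection. Sequence sharing is the share, in percent, of the 31-base words of a gene that are found in transcripts of other genes (GENCODE annotation).

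Members and gene lists were chosen with earlier results of these data known. The lists overlap, and a gene can be counted on several of them. Named were the 15 highest and 15 lowest genes for OGD+Oba, the 10 highest by level in the deprived pair and in normoxia, up to 4 members of each list, and the 5 genes furthest apart in the pair, with predicted genes passed over; further list members and single genes were named once their values were known. The MIF axis genes were not analysed here, and a few genes taken by this rule or on the lists are left out of the report. Alternatives were another pseudocount, floor or fold size, median-ratio scaling, another control, other limma settings, leaving out times, predicted genes or, chosen after seeing the data, genes sharing at least 50% of their words.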

Additional observations from a re-analysis of the deposited data

Results flagged for a closer look

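Among 117 genes named by the rule, 15 lay below normoxia at 1 h and above it at 6 h under OGD+Oba, by at least 0.5 on the log2 scale at both times and each OGD library on the same side. The difference between the times was not tested, and each value rests on 2 single libraries. The matching share over all compared genes is not given here, so whether 15 of 117 is unusual cannot be said. Many of the 117 were named for their 6 h differences, in a table chosen at 6 h, which favours the later part of the criterion. In each of the 15 genes normoxia was itself higher at 1 h than at 6 h, for Egr1 at 179 against 10.3 FPKM. At 1 h the immediate early genes Egr1, Fos, Junb, Atf3 and Ier3 were at -3.62, -2.02, -1.20, -1.10 and -0.70 for OGD+Oba minus normoxia, against 3.94, 3.16, 2.44, 2.77 and 2.93 at 6 h. The chemokines Cxcl1, Cxcl2 and Cxcl10 were at -3.15, -2.61 and -0.97 at 1 h and at 2.26, 2.95 and 2.31 at 6 h. The NF-kB feedback genes Tnfaip3, Nfkbiz and Nfkbia were at -1.58, -1.37 and -0.96, then at 2.17, 2.08 and 2.54. The phosphatases Dusp5 and Dusp1 were at -1.79 and -1.38, then at 1.40 and 1.14. H1f4 and the clock repressor Ciart were at -0.87 and -0.57, then at 2.60 and 2.20. None of the 117 genes met the same criterion between 3 h and 6 h.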

How the results depend on the processing

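No paired analysis was possible because each group holds 1 library and the labels give no replicate numbers. With a pseudocount of 0.1, OGD was at least 2-fold lower than normoxia at 6 h for 260 genes in place of 172, and OGD+Oba lower than earlier normoxia for 106 in place of 61. At a size of 1.5-fold, OGD was lower for 263 genes, and OGD+Oba was higher than earlier normoxia for 245 in place of 145 and lower for 176. With a floor of 5 FPKM, limma called 152 genes lower in place of 257; fewer genes were tested. Ccl2 changed direction, from 0.31 to -0.66, when the mean of normoxia at 3 h and 6 h was the control. Over all alternatives the other 812 of 813 differences of named genes kept direction and side, as did 1155 of 1170 limma effects, with 4 weaker and 11 stronger. Depth is unknown, so what it limits cannot be given.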
